A study of Mus musculus with 2 samples.

Results

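The genes described here encode 48 glycoproteins and small proteoglycans of the extracellular matrix, taken as a list of symbols and grouped by the roles of their proteins. All 48 had a row among the 43346 mouse gene IDs of the deposited tables. They comprise 14 genes of fibronectin and the elastic fibre, 4 tenascins, 4 thrombospondins, 2 proteins built of fasciclin (FAS1) domains, 4 genes of hyaluronan-binding proteoglycans and their link protein, 7 small leucine-rich proteoglycans, 3 CCN proteins and 10 other glycoproteins.

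Total RNA was sequenced from the facial prominences of B6NCrl mouse embryos at embryonic day 12.5, when the swellings that build the face grow and fuse. There was 1 group of 2 libraries and no treatment or mutant. Replicate 1 came from a pool of 120 embryos of mixed sex and replicate 2 from a pool of 88. Each library was made from 10 ng of RNA selected for size, with synthetic spike-ins, and held 27890681 expected counts in replicate 1 and 39969716 in replicate 2. The tissue was measured in bulk, so fewer cells of a type and less RNA per cell cannot be told apart. All 4 mesenchyme markers, Pdgfra, Prrx1, Twist1 and Msx1, were above 10 TPM in both libraries, and their summed level was 653 TPM in replicate 1 and 637 TPM in replicate 2.

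Matrix glycoproteins are secreted, assemble outside the cell and bind collagens, integrins and growth factors. Fibronectin is assembled first in many embryonic tissues, and fibrillins form microfibrils on which tropoelastin is later deposited. Small leucine-rich proteoglycans coat collagen fibrils and limit their width, while versican and hyaluronan make a hydrated matrix around mesenchymal cells. In the face these proteins surround the neural crest-derived mesenchyme, the first cartilage condensations, vessels and nerves.

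Most of the 48 genes were measured well above the typical protein-coding gene. Levels are in TPM, a transcript count divided by length and scaled to the same total in each library, so genes can be compared. At 1 TPM or more in both libraries stood 44 of the 48 members (91.7%), where the share over 21474 protein-coding genes was 61.8%. At 10 TPM or more in both stood 33 members (68.8%, against 41.7% of protein-coding genes), and at 100 TPM or more stood 9 (18.8%, against 7.39%). The median level over the members was 20.4 TPM in replicate 1 and 21.9 TPM in replicate 2. The median over protein-coding genes was 5.27 TPM in replicate 1 and 5.20 TPM in replicate 2. The 44 members above 1 TPM include genes of all 8 roles, and the 4 below are Nov, Bcan, Tnr and Tnxb.

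**Figure D1:**
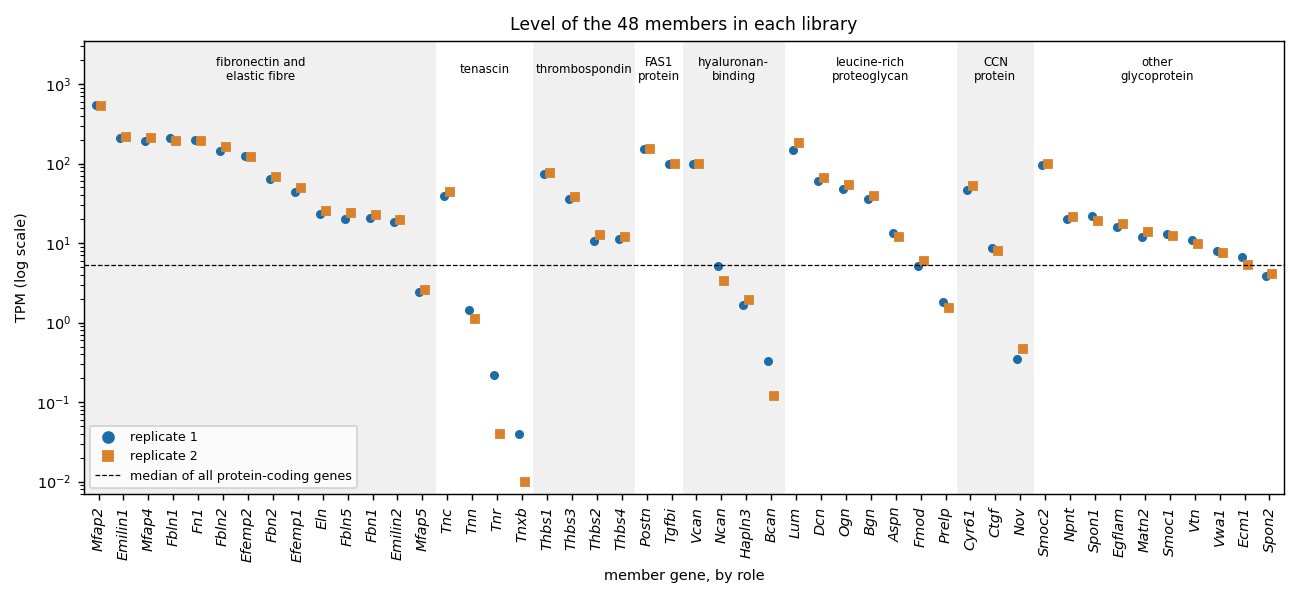
TPM of each of the 48 members (log scale) in replicate 1 (circles) and replicate 2 (squares), grouped by role and ordered by mean level, with the median of all protein-coding genes as a dashed line. The fibronectin and elastic fibre genes fill the top of the range, with Mfap2 highest at 544 TPM in replicate 1 and 533 TPM in replicate 2, and Tnc and Vcan stand above the other members of their roles, all of which are under 10 TPM.

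A few genes carried most of the members' TPM. Their summed level was 2918 TPM (0.292% of all TPM) in replicate 1 and 3003 TPM (0.300%) in replicate 2. Mfap2 alone held 18.2% of the members' mean total, the top 5 held 45.5% and the top 10 held 68.9%. By role, the 14 fibronectin and elastic fibre genes held 61.6%, the leucine-rich proteoglycans 11.3% and the FAS1 proteins 8.47%. Ordered by mean level, 26 of the 47 pairs of neighbours had ranges over the libraries that overlap, so the order between such neighbours was not resolved. Emilin1, Mfap4, Fbln1 and Fn1 formed one such run behind Mfap2, and Lum, Fbln2 and Postn formed the next.

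The highest member was a microfibril gene. Mfap2, which encodes a small glycoprotein that binds fibrillin microfibrils (chr4:141010418-141015984, plus strand, GRCm38), stood at 544 TPM in replicate 1 and 533 TPM in replicate 2. Its paralog Mfap5, of the same microfibril-binding family, stood at 2.45 TPM in replicate 1 and 2.57 TPM in replicate 2. Mfap2 was thus 215-fold above Mfap5, with a log2 ratio of 7.79 in replicate 1 and 7.70 in replicate 2. Mfap5 rested on 48 counts in replicate 1 and 68 in replicate 2, and on posterior mean TPM the log2 ratio was 7.27. Mfap4, a fibrinogen-domain glycoprotein that binds fibrillin and elastin, was at 191 TPM in replicate 1 and 211 TPM in replicate 2, below Mfap2 by a mean log2 ratio of 1.42 ± 0.12 (SD, n = 2), or 0.78 on counts not divided by length. A ratio was called where its mean log2 lay beyond -1 or 1 and each library gave the same sign, and both of these were.

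Of the fibrillins, the glycoproteins that form the microfibril itself, Fbn2 stood above Fbn1. Fbn2, known mainly from embryonic microfibrils, was measured at 64.6 TPM in replicate 1 and 67.5 TPM in replicate 2. Fbn1, the main fibrillin of adult tissue, was at 20.6 TPM in replicate 1 and 22.3 TPM in replicate 2. The ranges do not overlap, and Fbn2 exceeded Fbn1 3.09-fold (log2 ratio 1.63 ± 0.04, SD, n = 2). Exons of Fbn1 share 2442 bases with Gm9913 on the opposite strand, itself at 0.41 TPM in replicate 1 and 0.55 TPM in replicate 2.

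Tropoelastin, the core protein of the elastic fibre, stood below its assembly partner fibulin-4, and its range overlapped that of fibulin-5. Eln (chr5:134702593-134747323, minus strand) stood at 23.1 TPM in replicate 1 and 25.0 TPM in replicate 2. Fibulin-4, encoded by Efemp2 and needed for elastic fibre assembly and cross-linking, was at 124 TPM in replicate 1 and 121 TPM in replicate 2. Fibulin-5, encoded by Fbln5 and a carrier of tropoelastin to microfibrils, was at 20.3 TPM in replicate 1 and 24.1 TPM in replicate 2. Efemp2 was therefore the higher of that pair by 5.54-fold. The log2 ratio Fbln5/Efemp2 was -2.47, but -0.41 and no longer called on counts not divided by length. Efemp2 also exceeded Efemp1 (fibulin-3), at 43.9 TPM in replicate 1 and 48.8 TPM in replicate 2, by 2.65-fold. Efemp2 shares 173 exon bases with Mus81 on the opposite strand, which was at 38.3 TPM in replicate 1 and 37.3 TPM in replicate 2.

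The larger fibulins and the emilins were abundant too. Fbln1, which encodes a fibronectin-binding fibulin, was at 207 TPM in replicate 1 and 195 TPM in replicate 2, and Fbln2, which encodes a fibulin of basement membranes and elastic fibres, at 145 TPM in replicate 1 and 162 TPM in replicate 2. Their log2 ratio of 0.39 ± 0.18 (SD, n = 2) was not called. Emilin1, whose protein sits where elastin meets microfibrils, was at 211 TPM in replicate 1 and 213 TPM in replicate 2. Emilin2, a second member of that family, was at 18.3 TPM in replicate 1 and 19.3 TPM in replicate 2, so Emilin1 was 11.3-fold higher (log2 ratio 3.50, or 2.81 on complete coding transcripts alone). Gene levels of Fbln2 and Emilin1 include partial transcripts, which are given with the transcript results.

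Fibronectin, the integrin ligand on which mesenchymal cells migrate, was measured at 197 TPM in replicate 1 and 192 TPM in replicate 2. Fn1 lies at chr1:71585520-71653200 on the minus strand and had 17 annotated transcripts in the tables. It exceeded Tnc 4.69-fold (log2 ratio Tnc/Fn1 -2.23) and Eln 8.11-fold (Eln/Fn1 -3.02), and both ratios were called. On complete coding transcripts alone they were smaller, -1.20 for Tnc/Fn1 and -1.99 for Eln/Fn1, and still called. Fibronectin is spliced at 2 whole repeats, EIIIB and EIIIA, which are held in embryonic and wound matrix and left out of the plasma protein made by liver. The exons are printed because the forms counted below differ by them, with each exon in capitals and 10 bases of its neighbouring exons in lower case, from GENCODE M21 transcripts (GRCm38), 5′ to 3′ on the transcribed strand. The EIIIB exon has 273 bases at chr1:71613763-71614035 and the EIIIA exon 270 bases at chr1:71603660-71603929.
EIIIB exon: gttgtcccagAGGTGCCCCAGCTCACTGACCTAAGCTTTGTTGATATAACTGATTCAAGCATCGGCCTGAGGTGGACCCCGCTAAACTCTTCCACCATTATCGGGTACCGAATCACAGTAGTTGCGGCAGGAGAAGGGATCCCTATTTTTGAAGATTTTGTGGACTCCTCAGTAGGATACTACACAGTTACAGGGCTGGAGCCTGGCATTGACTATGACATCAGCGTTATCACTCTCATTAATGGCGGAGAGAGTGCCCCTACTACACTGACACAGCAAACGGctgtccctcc
EIIIA exon: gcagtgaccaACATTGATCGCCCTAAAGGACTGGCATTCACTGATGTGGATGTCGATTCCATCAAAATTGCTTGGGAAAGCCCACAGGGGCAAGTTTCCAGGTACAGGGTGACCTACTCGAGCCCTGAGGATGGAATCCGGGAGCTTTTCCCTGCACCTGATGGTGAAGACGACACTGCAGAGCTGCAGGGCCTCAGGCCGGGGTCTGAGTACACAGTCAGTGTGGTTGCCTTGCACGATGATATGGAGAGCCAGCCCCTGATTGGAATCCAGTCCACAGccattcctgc

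Among complete coding transcripts of Fn1, nearly all of the RNA was assigned to the form with both repeats. The form with EIIIB and EIIIA stood at 91.0 TPM in replicate 1 and 94.9 TPM in replicate 2. Of the complete coding transcripts that span EIIIB, 97.9% of TPM in replicate 1 and 97.0% in replicate 2 held it. Of those that span EIIIA, 99.4% in replicate 1 and 99.5% in replicate 2 held it. Forms with EIIIA but no EIIIB made up 1.55% in replicate 1 and 2.47% in replicate 2, and forms with neither made up 0.560% in replicate 1 and 0.481% in replicate 2. No annotated coding form holds EIIIB without EIIIA, so such RNA could not be counted.

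Those shares depend on which transcripts are counted. Transcripts annotated as retaining an intron held 52.5% of Fn1 TPM in replicate 1 and 48.4% in replicate 2, against 47.1% and 51.0% for complete coding transcripts. One of them, 4022 bases long, lacks EIIIA and was assigned 49.0 TPM in replicate 1 and 53.4 TPM in replicate 2. Over all transcripts that span an exon, EIIIB was held by 79.6% of TPM in replicate 1 and 81.0% in replicate 2. By the same count EIIIA was held by 65.1% in replicate 1 and 64.4% in replicate 2. In both ways of counting, the forms with the exon were the majority in both libraries. The third variable region of Fn1 was of its full 360 bases in 98.5% of complete coding TPM in replicate 1 and 98.2% in replicate 2, of 285 bases in 1.19% and 1.43%, and absent in 0.355% and 0.378%.

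**Figure D2:**
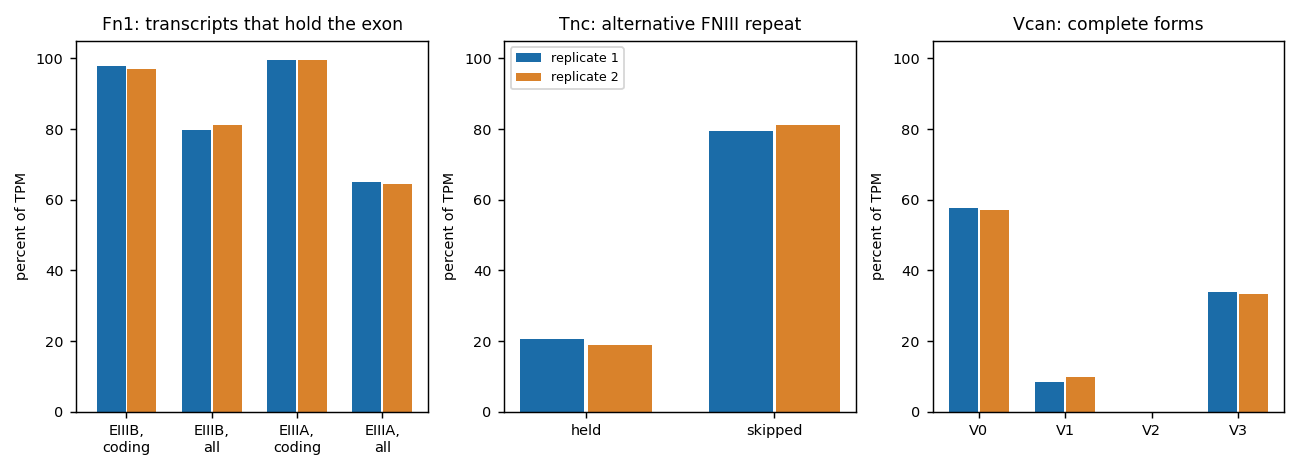
Percent of TPM in replicate 1 (left bar of each pair) and replicate 2 (right bar) for transcripts of Fn1 that hold EIIIB or EIIIA, for transcripts of Tnc that hold or skip the alternative repeat, and for the 4 complete forms of Vcan; for Fn1, "coding" counts complete coding transcripts and "all" counts every transcript that spans the exon. The libraries differ by under 2 percentage points in every pair of bars, while the share with EIIIA is 99.4% in replicate 1 by one count and 65.1% by the other.

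Tenascins ranged from an abundant gene to genes with a few reads. Tnc, a glycoprotein that modulates adhesion to fibronectin in embryonic mesenchyme and around tendons, was at 39.0 TPM in replicate 1 and 44.3 TPM in replicate 2. Tnn (tenascin-W, of bone and periosteal matrix) was at 1.43 TPM in replicate 1 and 1.10 TPM in replicate 2. Tnr, a tenascin of the nervous system, was listed at 0.22 TPM on 3 counts in replicate 1 and at 0.04 TPM on 9.03 counts in replicate 2. Its TPM and counts thus ranked the libraries in opposite orders, and its level was at the limit of what a few reads can show. Tnxb, of connective tissue later in life, had 9 counts in replicate 1 and 3 counts in replicate 2, or 0.04 and 0.01 TPM, so its ratio to Tnc passed the threshold but no fold is given.

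In its annotated transcripts, Tnc carries an alternative fibronectin type III repeat whose exon has 273 bases at chr4:63984460-63984732 on the minus strand. It is shown, with the exon in capitals and 10 bases of each neighbouring exon in lower case, beside the junction that skips it, in which capitals mark the downstream exon.
FNIII repeat exon: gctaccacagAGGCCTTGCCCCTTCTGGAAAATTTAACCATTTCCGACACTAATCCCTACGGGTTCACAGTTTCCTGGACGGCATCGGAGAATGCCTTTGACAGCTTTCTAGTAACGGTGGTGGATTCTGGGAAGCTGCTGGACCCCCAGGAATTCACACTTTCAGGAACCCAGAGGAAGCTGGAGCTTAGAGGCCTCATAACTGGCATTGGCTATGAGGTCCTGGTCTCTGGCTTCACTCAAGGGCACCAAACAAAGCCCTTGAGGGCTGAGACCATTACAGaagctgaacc
FNIII repeat skipping junction: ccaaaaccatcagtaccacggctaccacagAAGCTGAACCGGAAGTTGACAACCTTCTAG

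Most Tnc RNA was assigned to the form that skips this repeat. Transcripts with the repeat held 20.5% of the spanning TPM in replicate 1 and 19.0% in replicate 2, and transcripts without it held 79.5% and 81.0%. The transcript that holds the repeat starts at the nearer first exon, and the main one that skips it starts at an exon farther upstream. The upstream first exon held 79.0% of Tnc TPM in replicate 1 and 80.2% in replicate 2. With 4 annotated transcripts, the choice of repeat and the choice of start cannot be told apart here. Forms of Tnc that are not annotated could not be counted.

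Thrombospondins were all present, with Thbs1 highest by gene total. Thbs1, a regulator of angiogenesis and of latent TGF-beta, was at 74.8 TPM in replicate 1 and 75.5 TPM in replicate 2. Thbs2, the other trimeric thrombospondin, was at 10.6 TPM in replicate 1 and 12.8 TPM in replicate 2, so Thbs1 was 6.44-fold higher. Among the pentameric ones, Thbs3 was at 35.5 TPM in replicate 1 and 38.4 TPM in replicate 2 and Thbs4, of tendon and muscle attachment, at 11.1 TPM in replicate 1 and 11.9 TPM in replicate 2. The gene totals gave a called log2 ratio of 1.68 for Thbs3 over Thbs4. That call rests on partial transcripts: complete coding transcripts held 29.7% of Thbs3 TPM in replicate 1 and 27.2% in replicate 2. Counted on complete coding transcripts alone, Thbs3 was at 10.5 TPM in both libraries and Thbs4 at 10.4 TPM in replicate 1 and 11.9 TPM in replicate 2, so that the mean log2 ratio was -0.089, with Thbs3 higher in replicate 1 and lower in replicate 2. Exons of Thbs3 also share 318 bases with Mtx1 on the opposite strand, which stood at 173 TPM in replicate 1 and 174 TPM in replicate 2, and the labels do not say whether reads kept strand.

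The FAS1 proteins Postn and Tgfbi, which bind collagen and integrins, stood among the top 10 members. Postn (periostin) was at 153 TPM in replicate 1 and 150 TPM in replicate 2. Tgfbi was at 99.5 TPM in replicate 1 and 98.7 TPM in replicate 2. Postn was higher in both libraries, but the log2 ratio of 0.61 ± 0.01 (SD, n = 2) was below the threshold for a call.

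Versican stood highest of the 4 hyaluronan-binding members, and the neural members of that group were low. Vcan, the large chondroitin sulphate proteoglycan of embryonic mesenchyme (chr13:89655312-89742509, minus strand), was at 97.7 TPM in replicate 1 and 97.9 TPM in replicate 2. Ncan (neurocan, of nervous tissue) was at 5.09 TPM in replicate 1 and 3.37 TPM in replicate 2, so Vcan was 23.6-fold higher. Bcan (brevican, of the central nervous system) had 15 counts in replicate 1 and 8 counts in replicate 2, or 0.33 and 0.12 TPM. Hapln3, a link protein that ties such proteoglycans to hyaluronan, was at 1.67 TPM in replicate 1 and 1.94 TPM in replicate 2. The only Hapln3 transcript in the tables is typed in M21 as a target of nonsense-mediated decay.

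Versican forms differ by which of 2 exons for attachment of chondroitin sulphate, a glycosaminoglycan (GAG), they hold. The GAG-alpha exon has 2880 bases at chr13:89702918-89705797 and the GAG-beta exon 5217 bases at chr13:89688285-89693501. V0 holds both, V1 only GAG-beta, V2 only GAG-alpha and V3 neither. The first 30 bases after the shared upstream exon tell V0, V1 and V3 apart, and they are given in capitals after the last 30 bases of that exon.
V0 junction: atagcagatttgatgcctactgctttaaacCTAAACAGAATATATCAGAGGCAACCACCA
V1 junction: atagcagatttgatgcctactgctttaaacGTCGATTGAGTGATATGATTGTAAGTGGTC
V3 junction: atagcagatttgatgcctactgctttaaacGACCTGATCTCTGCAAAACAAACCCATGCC

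V0, the largest form, held more than any other form. Of the TPM of the 4 forms, V0 held 57.8% in replicate 1 and 57.0% in replicate 2, on 9773 and 14221 counts. V3, which carries no attachment exon, held 33.9% in replicate 1 and 33.3% in replicate 2, on 1034 and 1495 counts. V1 held 8.33% in replicate 1 and 9.74% in replicate 2. V2, the form known from brain, was listed at 0 in both libraries, with a posterior mean of 0.440% in replicate 1 and 0.363% in replicate 2. These shares leave out the other Vcan transcripts. Of all Vcan TPM, V0 held 46.5% in replicate 1 and 47.5% in replicate 2, V3 27.3% and 27.7%, and V1 6.70% and 8.11%. The annotated last exons of the forms also differ, with 2047 bases in V0, 1019 in V1, 714 in V2 and 303 in V3, so reads of the transcript's end entered these estimates as well as reads of the attachment exons.

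Among the small leucine-rich proteoglycans, Lum stood highest. Lumican, a keratan sulphate proteoglycan that organises collagen fibrils (Lum, chr10:97565128-97572703, plus strand), was at 148 TPM in replicate 1 and 181 TPM in replicate 2. Decorin, which binds collagen and TGF-beta (Dcn, chr10:97479609-97518143, plus strand), was at 60.1 TPM in replicate 1 and 65.7 TPM in replicate 2. Lum thus exceeded Dcn 2.61-fold. Biglycan, the closest relative of decorin (Bgn), was at 35.9 TPM in replicate 1 and 38.9 TPM in replicate 2, and its log2 distance below Dcn, 0.75 ± 0.01 (SD, n = 2), was not called. Bgn and Dcn ranges do not overlap.

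The other leucine-rich members came in pairs of genomic neighbours. Ogn, which encodes osteoglycin (chr13:49608046-49624501, plus strand), was at 47.2 TPM in replicate 1 and 53.5 TPM in replicate 2. Aspn, which encodes asporin, a decorin relative of periosteum and periodontal ligament (chr13:49544443-49567565, plus strand), was at 13.5 TPM in replicate 1 and 11.8 TPM in replicate 2, 3.97-fold below Ogn. Fmod (fibromodulin, which binds collagen, chr1:134037254-134048277, plus strand) was at 5.17 TPM in replicate 1 and 5.90 TPM in replicate 2. Prelp, whose protein anchors basement membranes to connective tissue (chr1:133910304-133921414, minus strand), was at 1.79 TPM in replicate 1 and 1.54 TPM in replicate 2, 3.33-fold below Fmod. Levels of neighbours in each cluster therefore differed. Leucine-rich genes outside the 48 that lie in these clusters were lower still than Lum, Ogn and Fmod beside them. Next to Lum, Kera was at 6.25 TPM in replicate 1 and 6.34 TPM in replicate 2, and Epyc at 4.99 and 3.92 TPM. Near Ogn, Omd was at 2.32 TPM in replicate 1 and 2.05 TPM in replicate 2, and Ecm2 at 0.52 and 0.46 TPM. Near Fmod, Optc was at 0.95 TPM in replicate 1 and 1.09 TPM in replicate 2.

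CCN proteins, matricellular regulators of adhesion that respond to mechanical and growth factor signals, were led by Cyr61 (named Ccn1 in the annotation). Cyr61 was at 47.0 TPM in replicate 1 and 52.6 TPM in replicate 2. Ctgf (Ccn2) was at 8.72 TPM in replicate 1 and 7.89 TPM in replicate 2, 5.99-fold below Cyr61. Exons of Ctgf share 665 bases with the opposite-strand transcript Gm15270, at 6.07 TPM in replicate 1 and 3.11 TPM in replicate 2. Nov (Ccn3) had 17 counts in replicate 1 and 32 counts in replicate 2, or 0.35 and 0.47 TPM. The log2 ratio Nov/Cyr61 was -6.94, or -5.17 with a pseudocount of 1 TPM, and no fold is given on so few counts. From the same family but outside the 48, Wisp1 (Ccn4) was at 15.5 TPM in replicate 1 and 16.4 TPM in replicate 2.

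Among the other glycoproteins, Smoc2 stood well above the rest. Smoc2, a calcium-binding relative of SPARC, was at 95.8 TPM in replicate 1 and 98.7 TPM in replicate 2. Smoc1, its paralog and a BMP pathway antagonist in frog embryos, was at 13.1 TPM in replicate 1 and 12.1 TPM in replicate 2, so Smoc2 was 7.72-fold higher. Spon1 (F-spondin, of the floor plate and axon guidance) was at 22.0 TPM in replicate 1 and 19.1 TPM in replicate 2, and it exceeded Spon2, its shorter relative with roles in innate immunity, 5.20-fold, with Spon2 at 3.80 and 4.08 TPM. Npnt (nephronectin, an integrin ligand of basement membranes) was at 20.1 TPM in replicate 1 and 21.4 TPM in replicate 2, and Egflam (pikachurin, of photoreceptor synapses) at 15.8 TPM in replicate 1 and 17.5 TPM in replicate 2. Their log2 ratio of 0.32 ± 0.04 (SD, n = 2) was not called. Matn2, a matrilin that links matrix filaments, was at 12.1 TPM in replicate 1 and 13.6 TPM in replicate 2.

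Vtn, Vwa1 and Ecm1 were all between 5 and 11 TPM. Vtn, the adhesive vitronectin that liver secretes into plasma, was at 11.0 TPM in replicate 1 and 9.81 TPM in replicate 2. Of 5 hepatocyte markers, none reached 10 TPM in both libraries, and their sum was 11.7 TPM in replicate 1 and 11.3 TPM in replicate 2; their part in the Vtn level was not tested. Vwa1, of cartilage and basement membrane matrix, was at 7.89 TPM in replicate 1 and 7.60 TPM in replicate 2. Ecm1, of skin and basement membrane, was at 6.61 TPM in replicate 1 and 5.30 TPM in replicate 2.

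**Figure D3:**
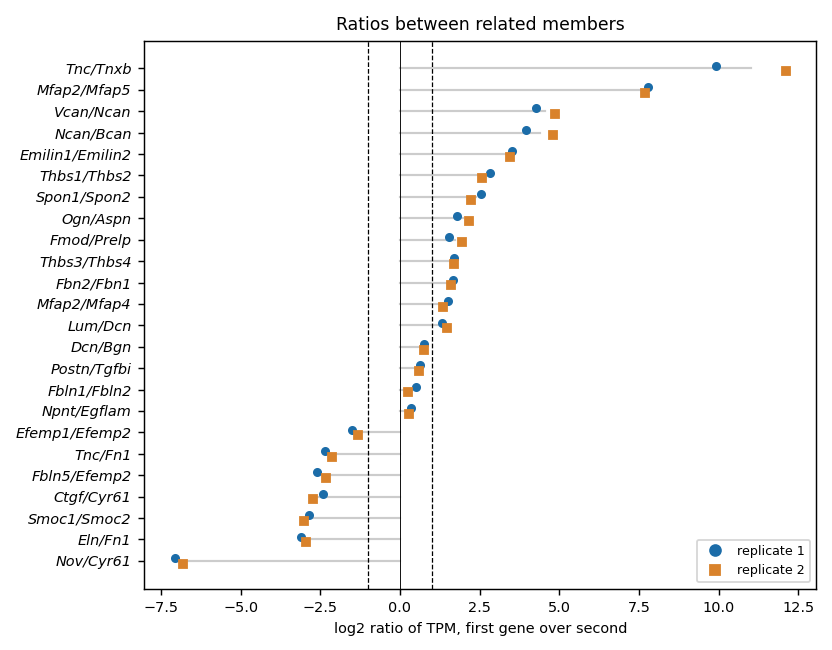
Log2 ratio of TPM, first gene over second, for the 24 pairs of related members in replicate 1 (circles) and replicate 2 (squares), ordered by mean, with dashed lines at -1 and 1. Both libraries fall on the same side of 0 in every pair, 20 pairs lie beyond the dashed lines, and the widest gap between libraries is in Tnc/Tnxb, where Tnxb rests on 9 and 3 counts.

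Over the 24 pairs, 20 ratios were called, 13 with the first gene higher and 7 with it lower. The share called among other pairs of genes was not computed, so the count describes these pairs only. The 4 that were not called were Fbln1/Fbln2, Postn/Tgfbi, Dcn/Bgn and Npnt/Egflam. Every pair had the same sign in both libraries, but 2 libraries of 1 group are too few for a p-value and none was computed. Counted on complete coding transcripts alone, Fbln1/Fbln2 became a called ratio with a mean log2 of 1.13, while the call for Thbs3/Thbs4 was lost as described. On counts not divided by length, Fbln5/Efemp2, Mfap2/Mfap4 and Thbs3/Thbs4 lost their calls.

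Partial and noncoding transcripts entered the level of several members. Complete coding transcripts held at least 90% of TPM in both libraries for 33 of the 48 members and less than 90% in both for 12. The same shares over all protein-coding genes were not computed, so these counts describe the members only. Fbln2 had 59.5% in replicate 1 and 60.5% in replicate 2, and Emilin1 had 61.4% and 63.1%. On complete coding transcripts, Fn1 stood at 92.9 TPM in replicate 1 and 98.1 TPM in replicate 2, Fbln2 at 86.0 and 98.2 TPM, and Emilin1 at 130 and 135 TPM. Fn1 thereby moved from rank 5 to rank 10 among the members, Thbs3 from 21 to 33, and Mfap2 stayed first. On counts not divided by length, Fn1 was at rank 1 and Mfap2 at rank 5.

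**Figure D4:**
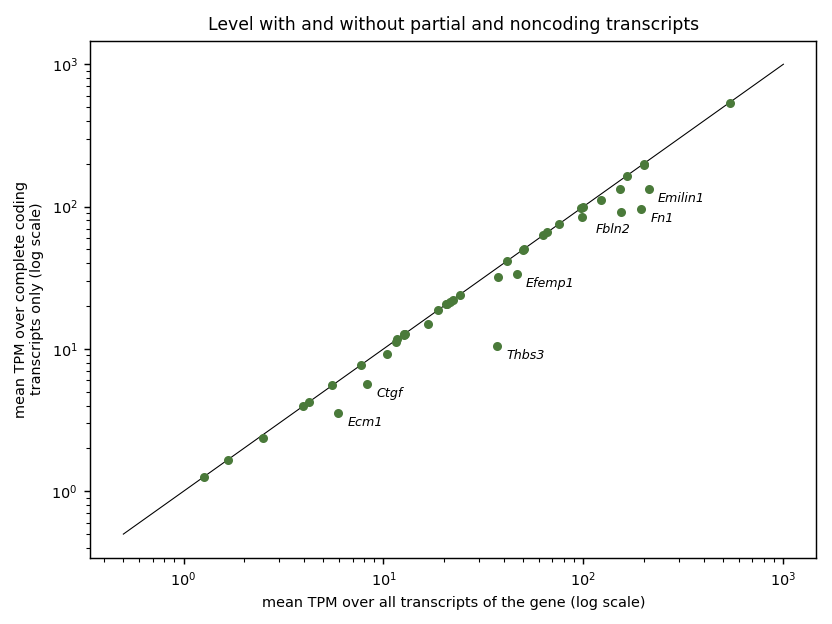
Mean TPM over complete coding transcripts only (vertical, log scale) against mean TPM over all transcripts of the gene (horizontal, log scale) for the 43 members above 0.5 TPM on both axes, with the line of equality; the 5 members not drawn are Hapln3, Nov, Bcan, Tnr and Tnxb. The 7 genes named, Fn1, Emilin1, Fbln2, Efemp1, Thbs3, Ctgf and Ecm1, lie under 80% of the line, Thbs3 farthest.

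On TPM + 1, no member differed between the libraries by the threshold used. The difference was the log2 of TPM + 1 in replicate 1 over replicate 2, taken for the 44 members with a mean of 1 TPM or more, and a difference over 0.5 or under -0.5 was called. That happened in 0 of the 44, where 2.38% of 13490 protein-coding genes were called. With other settings Ncan, at 0.48, passed the threshold, at 0.58 with a pseudocount of 0.1 TPM and at 0.57 on TMM-scaled or RLE-scaled counts. The members' median difference was -0.07 and that of protein-coding genes was -0.004, and 28 members lay below 0 and 16 above. The median of the absolute difference was 0.12 for the members and 0.08 for protein-coding genes. Over 0.25 lay Ncan, at 0.48, and Ecm1, at 0.27 (2 members, 4.55%, against 6.26% of protein-coding genes). Under -0.25 lay Lum, at -0.29 (1 member, 2.27%, against 5.58%).

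**Figure D5:**
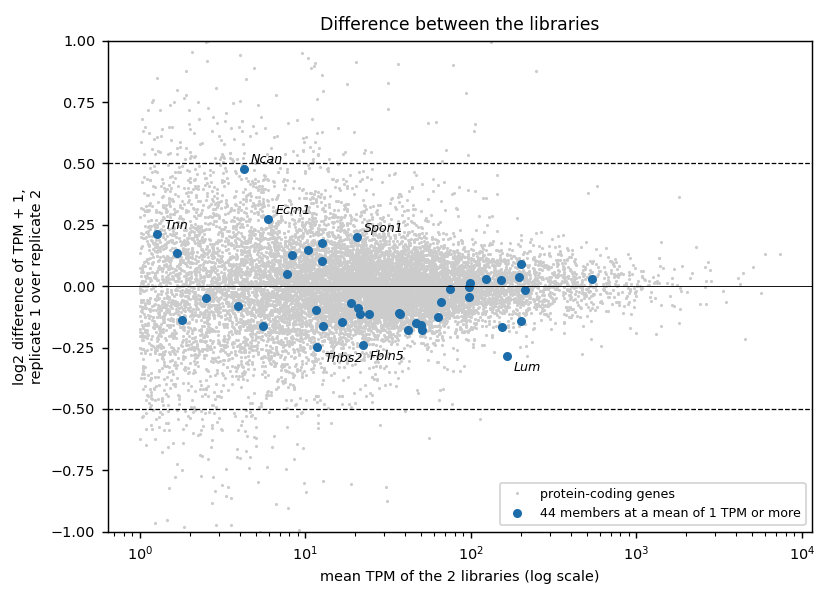
Log2 difference of TPM + 1, replicate 1 over replicate 2, against mean TPM (log scale) for the 44 members at a mean of 1 TPM or more (blue) and for protein-coding genes (grey), with dashed lines at -0.5 and 0.5; 34 protein-coding genes beyond -1 or 1 are outside the axis. All 44 members lie between the dashed lines, from -0.29 for Lum to 0.48 for Ncan, which passed 0.5 with a pseudocount of 0.1 TPM and on scaled counts.

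The counts of some members differed between the libraries by more than counting error. Counts were compared after scaling by the TPM that 1 read was worth in each library at equal length. The exact 95% binomial interval of the log2 ratio lay below 0 for 20 of the 44 members (45.5%, against 17.2% of protein-coding genes). It lay above 0 for 8 members (18.2%, against 13.1%). The upper end was -0.001 for Eln and -0.003 for Emilin1, so these calls depend on the scaling. Lum, with 5121 counts in replicate 1 and 8870 in replicate 2, had an interval from -0.34 to -0.24. Ncan, with 631 counts in replicate 1 and 592 in replicate 2, had one from 0.43 to 0.76. The 20 log2 count ratios ran from -0.32 for Egflam, past Lum at -0.29, Thbs2 at -0.27 and Fbln5 at -0.25, to -0.04 for Emilin1. Members with more counts have narrower intervals, so smaller shifts pass. Some deeply read members, such as Mfap2, Thbs1 and Tgfbi, had intervals that include 0. The count ratios take no account of effective length, which for Egflam was 3979 bases in replicate 1 and 4465 in replicate 2. Its TPM difference was -0.14, smaller than that of Lum. For Fn1, counted among the 20, the count ratio was -0.06 and the TPM difference 0.04, with opposite signs. Among the 8, Vtn had a count ratio of 0.40 and a TPM difference of 0.15, and Ctgf 0.33 and 0.13. Spon1, also among the 8, was at 0.20 by both. These intervals cover counting error only and describe 2 pools, not a condition.

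The libraries also differed in some marker genes. All 5 neuron markers were higher in replicate 1, with a summed level of 542 TPM there and 417 TPM in replicate 2. All 4 glia markers were higher there too, with 211 TPM in replicate 1 and 171 TPM in replicate 2. Most of that glia difference was in Fabp7, at 162 and 125 TPM, while Erbb3 was at 17.3 and 17.2 TPM. Of the 5 cartilage markers 4 were higher in replicate 1, where their sum was 596 TPM, and it was 551 TPM in replicate 2. All 3 erythroid markers were higher in replicate 1, with a sum of 9236 TPM there and 8384 TPM in replicate 2. Of the 4 macrophage markers 3 were higher in replicate 1, with sums of 68.9 TPM there and 65.2 TPM in replicate 2. Not every list leaned that way. Higher in replicate 1 were 3 of 6 mural and smooth muscle markers, with sums of 162 TPM there and 176 TPM in replicate 2. So were 2 of 5 endothelium, 1 of 4 epithelium and 1 of 3 oligodendrocyte markers. For mesenchyme it was 3 of 4, for hepatocytes 3 of 5 and for tendon 2 of 3. None of these markers was at 0. Their part in the higher Ncan and lower Lum of replicate 1 was not tested.

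Related matrix genes outside the 48 were lower in general but held 1 gene above all members. Of 39 such genes, 28 reached 1 TPM in both libraries and 14 reached 10 TPM, with a median level of 6.30 TPM beside 21.1 TPM for the members. Sparc, a collagen-binding matricellular protein, stood at 659 TPM in replicate 1 and 679 TPM in replicate 2, above Mfap2 in both. Lox, the lysyl oxidase that cross-links elastin and collagen, was at 40.0 TPM in replicate 1 and 53.8 TPM in replicate 2. Ltbp1, a latent TGF-beta-binding relative of the fibrillins, was at 29.0 TPM in replicate 1 and 30.4 TPM in replicate 2. Cartilage matrix genes of the list lay on both sides of its median. Acan was at 4.34 TPM in replicate 1 and 2.67 TPM in replicate 2, Matn1 at 5.78 and 3.44 TPM, and Comp at 0.32 and 0.80 TPM. Matn4 was at 36.3 TPM in replicate 1 and 29.9 TPM in replicate 2, and Hapln1, the cartilage link protein, at 12.3 and 11.5 TPM, above the member Hapln3. Has2, the main hyaluronan synthase of embryos, was at 2.61 TPM in replicate 1 and 3.10 TPM in replicate 2.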

How the data were processed

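The deposited tables give, per the file headers, an expected count, TPM, FPKM and posterior mean TPM per gene and transcript, and a percent of each gene's TPM per transcript. Reads were aligned to mm10 with GENCODE M4, per the deposited notes. Which programs aligned and counted the reads is not given in the sources used here. An expected count is an estimated number of reads, with reads that match several transcripts shared among them. The deposited TPM values are per effective length and include spike-ins in the total. The deposited FPKM values were not used.

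Gene names, types, exons and 1-based coordinates came from GENCODE M21 (GRCm38). Of the members' 187 transcripts, 184 were in M21 and 165 had the same length there. A complete coding transcript is one that M21 types as protein coding without a missing end. Gene levels are the deposited gene TPM, given per library or as mean ± SD (n = 2). A gene at 0 could have up to 3 counts, which at an effective length of 1000 bases is 0.172 TPM (replicate 1) or 0.121 TPM (replicate 2). Such limits and the binomial intervals cover counting error only. The labels call the samples biological replicates; both are pools of one strain. Differences used a pseudocount of 1 TPM and a minimum mean of 1 TPM. The rule was tried on simulated counts with counting error only, which cannot show how it performs when pools vary. With 1 group, no model was fitted and no p-value given. TMM and RLE factors came from edgeR 4.0.16 (R 4.3.3) on the counts; other steps used Python 3.11.15, pandas 2.3.3 and scipy 1.17.1.

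Values in every library are given for the 2 highest members and the lowest of each role and for every member of a pair, and the other members by their levels. The members, lists and pairs were chosen with earlier results of these data known.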

Additional observations from a re-analysis of the deposited data

How the results depend on the processing

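The count of 44 members at 1 TPM stayed at 44 on posterior mean TPM and in each library alone, and was 33 at 10 TPM. The median member level of 21.1 TPM was 20.4 to 21.9 TPM in single libraries, 22.7 with TPM rescaled without spike-ins and 46.2 for counts scaled to library size without division by length. Ncan was the 1 member past 0.5 with a pseudocount of 0.1 TPM and with TMM-scaled and RLE-scaled counts, where 1 member was called, and 3 members passed the threshold of 0.25 chosen after seeing the data. Called ratios stayed at 20 of 24 except with counts not divided by length, which gave 17, without Fbln5/Efemp2, Mfap2/Mfap4 and Thbs3/Thbs4. On complete coding transcripts, an alternative chosen after seeing the data, Thbs3/Thbs4 lost its call, with a mean of -0.089 and opposite signs in the libraries, since less of Thbs3 is then counted. On the posterior mean isoform percentage, the share with EIIIB was 96.1%, with EIIIA 98.7% and that of V3 33.1%, and over all spanning transcripts, also added later, EIIIB was 80.3% and EIIIA 64.7%. No paired analysis was possible because the series has 1 group. Depth limits Tnr, Tnxb, Bcan and Nov, which rest on 3 to 32 counts. The 2 libraries of pooled tissue give no error on a difference between them.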
